A study of Mus musculus with 768 samples.

Results

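Semaphorins and their receptors, the plexins and neuropilins, were measured in single cells sorted from the dentate gyrus of adult mice. All rows of the count table whose gene symbol belongs to these 3 families were taken, whatever their level. This gave 31 of 32679 genes, namely 20 semaphorins, 9 plexins and 2 neuropilins, and each had at least 1 count. The cells carried the Nestin:GFP reporter, in which control elements of Nes, a gene of neural stem cells, drive green fluorescent protein, so the sort takes any cell that uses these elements. The 4 miR-132 mice (mice 2, 4, 6 and 8) had received a miR-132 mimic, and the 4 control mice (mice 1, 3, 5 and 7) a negative control oligonucleotide. All were Nestin:GFP males aged 2 months, and both oligonucleotides were given with lipofectamine 2000 at equal volume, as 3 µl holding 150 pmol each week for 5 weeks. Sorting took place on 17 April (mice 1 to 4) and 19 April (mice 5 to 8), with 2 mice of each treatment on either date. The letters "AD" stand before the tissue name in the series text and are not spelled out, and the labels give no genotype other than the reporter. Libraries were made from single cells by Smart-seq2, which copies whole transcripts and uses no molecular identifiers, and were sequenced on a NextSeq500.

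Semaphorins are signalling proteins first studied as cues that steer growing axons. Class 3 members are secreted, classes 4, 5 and 6 span the membrane, and Sema7a is held on the membrane by a lipid anchor. Plexins are their transmembrane receptors and act through small GTPases on the cytoskeleton and on integrins. Most class 3 semaphorins bind neuropilins, which lack a signalling domain of their own and form a complex with A-type plexins, while Sema3e can bind Plxnd1 directly. Class 4 members signal mainly through B-type plexins, Sema5a through Plxna1, Plxna3 and Plxnb3, class 6 members through A-type plexins, and Sema7a through Plxnc1 and integrins. In the adult brain these genes are used by blood vessels, glia and migrating neurons as well as by axons.

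The mimic carries the sequence of miR-132, which pairs with messenger RNA through its seed, bases 2 to 8. The mature strand and that of miR-212-3p, which has the same seed and lies next to it on mouse chromosome 11, are shown because this seed sets which members could pair with the injected RNA. Capitals mark the seed (RefSeq, GRCm38.p6).
mmu-miR-132-3p: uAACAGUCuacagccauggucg
mmu-miR-212-3p: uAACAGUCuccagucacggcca

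The 3′ UTR of each member (GENCODE M21, mm10, 1 transcript a gene, transcript strand only) was searched for GACTGTTA, which pairs with the seed and adds an A, and for the shorter forms GACTGTT and ACTGTTA, both of which lie inside it. Of 31 members, 6 (19.4%) held at least 1 match, against 3442 of 17930 genes (19.2%), a share near that of all genes. The 8-base form stood in 2 members, Sema4g and Sema5a (6.45%), against 457 genes (2.55%). Median UTR length was 1400 bases in the members, against 1099.5 bases in all genes. Matches in 5 members are shown with the bases before them, in capitals where they pair. Sema6a, the other member with a match, is not printed.
Sema4g, chr19:45003167-45003174, plus strand: tcttgggtgaggatGACTGTTA
Sema5a, chr15:32695479-32695486, plus strand: ttggtaaacttgcaGACTGTTA
Sema5a, chr15:32695202-32695208, plus strand: cactgatctcttacACTGTTA
Plxnd1, chr6:115954968-115954974, minus strand: gacacactggaaatGACTGTT
Sema3c, chr5:17728048-17728054, plus strand: acaacagaagcagaACTGTTA
Sema3c, chr5:17728478-17728484, plus strand: ccattgacgtttctACTGTTA
Sema5b, chr16:35664038-35664044, plus strand: tccatgcctgtggaGACTGTT
A match describes letters in the UTR and is not evidence of binding. The UTR of Plxnb2, whose values by treatment are given further on, is 732 bases long and held none of the 3 forms.

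Of 768 wells, 675 held at least 50000 counts and 1000 genes and were kept, 75 to 92 a mouse, with a median of 646537 counts (61342 to 1116183). Per mouse the kept wells summed to between 43889169 and 66897586 counts. Clusters were made without the 31 members and named from marker genes, which put 658 wells in 8 classes. Oligodendrocyte-like cells were the most common class (22 to 53 a mouse), followed by endothelial-like cells (4 to 23 a mouse) and 96 astrocyte-like cells. There were 71 pericyte-like, 39 neuroblast-like, 16 fibroblast-like, 13 smooth muscle-like and 18 oligodendrocyte precursor-like cells. Defining markers stood where the names say, at a summed 88232 CPM (counts of a gene scaled to the same total of counts in every well) in oligodendrocyte-like and 32466 CPM in endothelial-like cells. The precursor-like cells also held 13283 CPM of oligodendrocyte markers beside 13694 CPM of their own. Pericyte markers summed to 20341 CPM in smooth muscle-like and 18698 CPM in fibroblast-like cells, against 64355 CPM in pericyte-like cells. Microglia markers summed to at most 0.778 CPM in any class, and the part of any other cell type's RNA in the levels below was not tested. Another 16 wells clustered together at over 6000 genes apiece and were given no name, since kept wells had a median of 2741 genes. These wells held counts of 19 members each (median), against 2.5 to 7 in the named classes. Over all genes their median was 10694 genes a well, against medians of 1951 to 3605 in the named classes.

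Levels are means over the cells of a class in CPM, and where genes are compared with each other they are divided by exon length in kilobases (CPM per kb). Both the ligand and the receptor side were read in every class, but different genes filled them. Ligands summed to 358.7 CPM per kb in endothelial-like, 158.2 in oligodendrocyte-like, 157.5 in neuroblast-like and 143.1 CPM per kb in precursor-like cells. They were lower in astrocyte-like (89.04 CPM per kb), pericyte-like (83.3), smooth muscle-like (30.7) and fibroblast-like cells (20.9 CPM per kb). Receptors varied less, with 151.8 CPM per kb in neuroblast-like, 141.9 in precursor-like, 118.96 in smooth muscle-like and 102.1 in oligodendrocyte-like cells, then 92.3 in fibroblast-like, 90.97 in pericyte-like, 84.6 in astrocyte-like and 75.1 CPM per kb in endothelial-like cells.

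**Figure D1:**
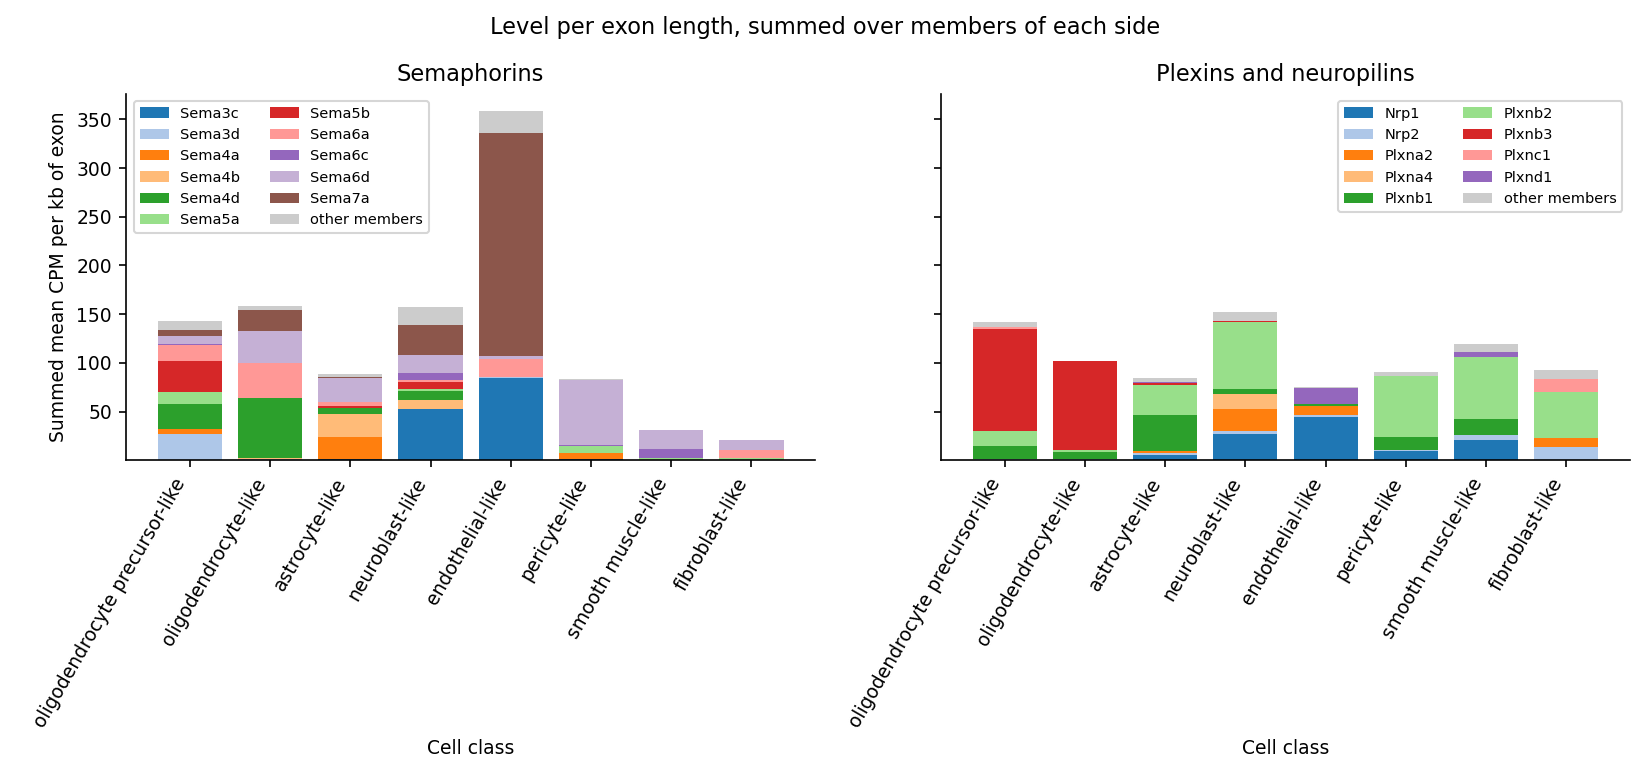
Summed levels of the 20 semaphorins and of the 11 plexins and neuropilins by class. As means over mice in CPM, where longer genes weigh more, endothelial-like cells had 1590 CPM of semaphorins and 755 CPM of receptors. Oligodendrocyte-like cells had 1224 and 699 CPM.

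In most classes 1 or 2 genes made up the bulk of each side. Sema7a made up 63.9% and Sema3c 23.6% of endothelial-like ligand, on the per-kb scale used for these shares. Sema6d made up 79.7% of pericyte-like ligand, while Sema4d (39.1%), Sema6a (22.8%) and Sema6d (20.6%) divided that of oligodendrocyte-like cells. Astrocyte-like ligand was spread over Sema6d (28.1%), Sema4b (26.8%) and Sema4a (25.5%). On the receptor side, Plxnb3 made up 89.6% in oligodendrocyte-like and 73.9% in precursor-like cells, Plxnb2 68.2% in pericyte-like cells and Nrp1 59.9% in endothelial-like cells. Plxnb1 (44.4%) and Plxnb2 (36.3%) led in astrocyte-like cells, and Plxnb2 (45.5%), Nrp1 (17.8%) and Plxna2 (14.9%) in neuroblast-like cells.

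**Figure D2:**
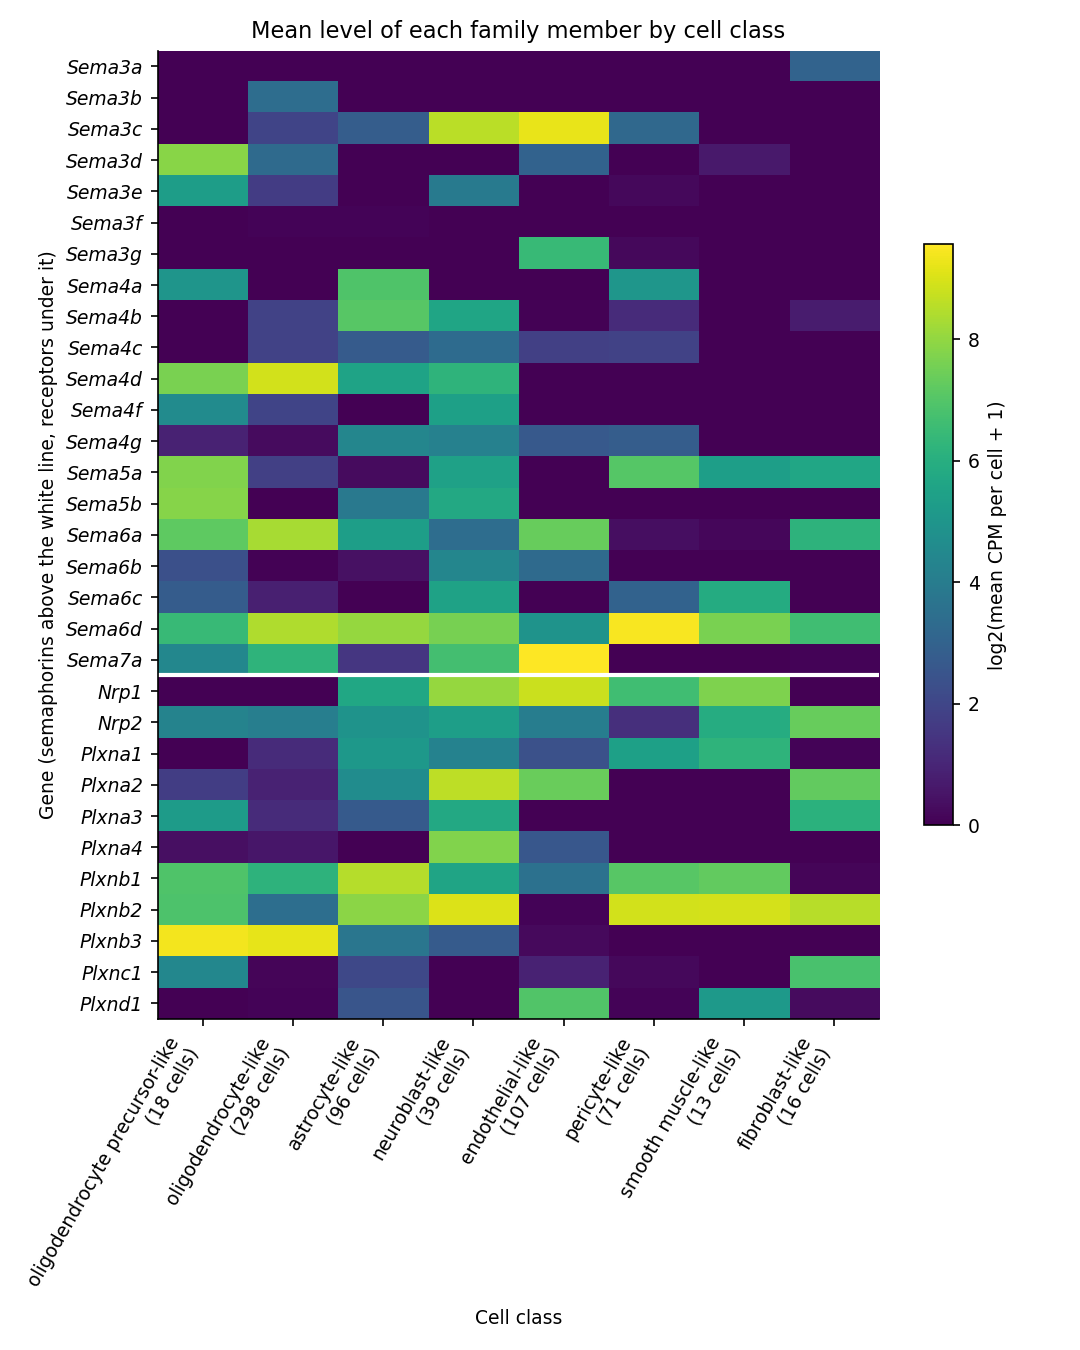
Mean level of each of the 31 members in the 8 classes, on a log scale of CPM per cell. Sema7a and Sema3c are highest in endothelial-like cells, Sema6d in pericyte-like cells, Plxnb3 in both oligodendrocyte lineage classes and Plxnb1 in astrocyte-like cells.

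Class differences were tested with edgeR's quasi-likelihood test on counts summed by mouse and class, with the mouse as a block. Each class was set against the equal-weight mean of the others, with Benjamini-Hochberg adjustment over 15310 genes and a threshold of 0.05. Of 31 members, 29 passed the filter on low counts, and Sema3a and Sema3f did not. Fitted folds are not given, since they depend on how sums at 0 are treated and on how many cells a class holds. The median log2 fold over all genes was 1.62 in oligodendrocyte-like, 1.15 in astrocyte-like, 0.62 in neuroblast-like, 0.43 in endothelial-like, -0.13 in pericyte-like and -0.25 in precursor-like cells. The limma fit, which weighs each well alike, gave 0.57, 0.20, 0.19, -0.14, -0.31 and -0.24 for the same classes. A gene is therefore called below only where both tests agreed in direction at adjusted p under 0.05, and the p given is edgeR's. The share of all genes called by both tests was not computed, so the shared counts below have no background beside them.

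Endothelial-like cells had 8 members called higher and 3 lower by edgeR (background over all genes 13% and 1.21%), and 8 higher and 6 lower by limma (11.1% and 8.42%), with 8 and 3 shared. Oligodendrocyte-like cells had 9 higher and 1 lower by edgeR (30.5% and 1.21%), and 6 and 5 by limma (17.9% and 6.57%), with 6 and 1 shared. Astrocyte-like cells had 8 higher and 0 lower by edgeR (20% and 0.712%), and 5 and 4 by limma (13.8% and 6.06%), with 5 and 0 shared. For the last 2 classes the shares called higher lie near the background, while those called lower by limma lie above it, and the single genes are given instead. Neuroblast-like cells had 15 higher and 0 lower by edgeR (11.4% and 1.72%), and 11 and 3 by limma (13.5% and 7.99%), with 11 and 0 shared. Pericyte-like cells had 6 higher and 1 lower by edgeR (6.81% and 0.751%), and 3 and 8 by limma (6.34% and 7.86%), with 3 and 1 shared. Precursor-like cells, whose contrast was added after their levels were seen, had 6 higher and 0 lower by edgeR (6.02% and 0.921%), and 5 and 2 by limma (5.36% and 3.28%), with 4 and 0 shared. Without mouse 4 the edgeR count in precursor-like cells was 3, beside 741 of 14937 genes. Fibroblast-like and smooth muscle-like cells are given by level only.

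Among secreted ligands, Sema3c was the most abundant. This class 3 semaphorin, which signals through neuropilins and Plxnd1 in the developing outflow tract, averaged 604 CPM in endothelial-like cells and had counts in 81 of them (75.7%). By mouse its endothelial-like level was 426 CPM at the lowest, 620 CPM at the median and 900.2 CPM at the highest, so every mouse showed it. The only other class above 50 CPM was neuroblast-like, at 376.6 CPM with counts in 19 of 39 cells (116.5 to 663.8 CPM by mouse, median 346.3 CPM). Sema3c was called higher in both (adjusted p = 1.1e-08 in endothelial-like and 1.9e-06 in neuroblast-like cells). Endothelial-like cells exceeded neuroblast-like cells in 6 of 7 mice, but the test between these 2 classes did not pass (adjusted p = 0.615). All other classes lay at or below 8.33 CPM.

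Sema3g, a class 3 semaphorin made by endothelium, averaged 86.7 CPM in endothelial-like cells and was called higher there (adjusted p = 3.0e-06). It was carried by few cells, 15 in all (14.02%). By mouse the level was 9.61, 24.6, 70.99 and 79.4 CPM in miR-132 mice and 0, 51.9, 421 and 2.75 CPM in control mice. Control mouse 5 stood far above the rest, with 3 of its 12 endothelial-like cells positive. In the other named classes 1 pericyte-like cell had counts, and no oligodendrocyte-like cell did, which allows a share of up to 1.01%. The remaining 7 of its 23 wells had no class.

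Sema3d, known to guide endothelial and axonal growth, was read mainly in precursor-like cells, at 230.6 CPM with counts in 12 of 18 cells. Its level was 161.02 and 141.4 CPM in miR-132 mice 4 and 6, and 18.7 and 360.1 CPM in control mice 1 and 5, the 4 mice with at least 3 such cells. The call (adjusted p = 0.00086) rests on these 4 mice, whose values span a wide range. The remaining class 3 genes stayed below 50 CPM in each class. Sema3b was called higher in oligodendrocyte-like cells (adjusted p = 8.6e-06), although its level by mouse there reached only 22.5 CPM. Sema3e, the ligand of Plxnd1, reached 38.9 CPM in precursor-like cells.

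Class 4 ligands were divided between glia. Sema4d, whose receptor in brain is Plxnb1 and which is known to restrain oligodendrocyte maturation, averaged 474 CPM in oligodendrocyte-like cells and had counts in 82.9% of them. Its level there was 476.8, 424.3, 562.3 and 541.4 CPM in miR-132 mice and 539.9, 453.7, 429.9 and 317.2 CPM in control mice. The mice differed little and the treatments overlapped. The class was called higher (adjusted p = 6.0e-11). Precursor-like cells averaged 197.9 CPM from 5 of 18 cells, and the lower level of Sema4d in astrocyte-like cells, 45.9 CPM, was called higher too by the equal-weight contrast (adjusted p = 2.7e-06).

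Sema4a and Sema4b led in astrocyte-like cells. Sema4a, also known from immune cells, averaged 122.6 CPM with counts in 32 of 96 cells (33.3%), and 12.8 CPM at the lowest, 102.9 CPM at the median and 190.8 CPM at the highest by mouse. Sema4b averaged 134.9 CPM with counts in 45 of 96 cells (46.9%). Both were called higher (adjusted p = 3.1e-10 for Sema4a and 5.8e-07 for Sema4b). By mouse Sema4b was uneven, at 166.04, 28.7, 128.2 and 9.60 CPM in miR-132 mice and 530.97, 235.1, 60.4 and 3.70 CPM in control mice. The highest value belonged to control mouse 1 and the lowest to control mouse 7, so the treatments overlapped. Sema4g was called higher in astrocyte-like cells as well (adjusted p = 0.0014), with 0.702 to 59.4 CPM by mouse. Neuroblast-like cells had Sema4b at 48.9 CPM (adjusted p = 0.0024) and Sema4f at 42.02 CPM (adjusted p = 0.00053). Sema4c stayed below 50 CPM in each class.

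Class 5 semaphorins, which carry thrombospondin repeats, had their highest means in precursor-like cells. Sema5b was at 229.04 and 300.9 CPM in miR-132 mice 4 and 6 and at 235.06 and 271.5 CPM in control mice 1 and 5, with counts in 9 of 18 cells. These 4 values lie close together and the treatments overlapped. In the same order of mice Sema5a was at 241.96 and 184.5 CPM in miR-132 mice and at 131.3 and 189.4 CPM in control mice, with counts in 14 of 18 cells. The class was called higher for Sema5b (adjusted p = 0.0002) and Sema5a (adjusted p = 0.0050), and the call of Sema5a was lost without mouse 4 (adjusted p = 0.0911). The next class for Sema5b was neuroblast-like, at 53.2 CPM (0 to 96.7 CPM by mouse). Sema5a, a ligand of Plxnb3, was also read in pericyte-like cells, at 131.6 CPM with counts in 19 of 71 cells (adjusted p = 0.0042 by edgeR). It was called lower in endothelial-like cells (adjusted p = 0.0021), which stood in 7 of the 8 fits without 1 mouse, and the fit without mouse 8 gave no usable error.

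Class 6 ligands, which act on A-type plexins and can themselves act as receptors, were the most widely used. Sema6d passed 50 CPM in 7 of 8 classes. Pericyte-like cells led with 701 CPM and counts in 54 of 71 cells (76.1%), followed by oligodendrocyte-like cells with 344.6 CPM and astrocyte-like cells with 263.7 CPM. Oligodendrocyte-like Sema6d kept between 227.1 and 391.4 CPM by mouse, while pericyte-like Sema6d ranged between 159.4 and 1309.9 CPM. Both classes were called higher (adjusted p = 0.019 each), but not without mouse 4 in oligodendrocyte-like (adjusted p = 0.070) or mouse 8 in pericyte-like cells (adjusted p = 0.0574). They did not differ from each other beyond their spread (adjusted p = 0.874). Endothelial-like cells were called lower (adjusted p = 0.035), a call that stood in 3 of the 8 fits without 1 mouse and was lost without mouse 1, 3, 5, 7 or 8 (adjusted p up to 0.119).

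Sema6a averaged 315.97 CPM in oligodendrocyte-like cells, with counts in 84.2% of them. Its level was 301.7, 240.05, 256.8 and 323.4 CPM in miR-132 mice and 344.6, 276.8, 423.9 and 327.9 CPM in control mice. The treatments overlapped, and control mouse 5 was the highest. Endothelial-like cells averaged 163.2 CPM and were below oligodendrocyte-like cells in 8 of 8 mice, though the test between these 2 classes did not pass (adjusted p = 0.586). Both were called higher than the remaining classes (adjusted p = 1.3e-06 in oligodendrocyte-like and 0.00021 in endothelial-like cells), and pericyte-like cells lower (adjusted p = 0.00093). Sema6c averaged 44.6 CPM in neuroblast-like cells (adjusted p = 0.0079, but 0.0835 without mouse 5 and 0.0676 without mouse 6) and 57.98 CPM in smooth muscle-like cells, where 2 of 13 cells had counts. Sema6b stayed below 50 CPM in each class.

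Sema7a, the lipid-anchored member, had the highest per-length level of the family in any class, 229.4 CPM per kb in endothelial-like cells. There it averaged 756 CPM with counts in 73 cells (68.2%). By mouse it was at 341.3, 805.4, 441.8 and 1284.9 CPM in miR-132 mice and at 608.1, 533.3, 622.8 and 828.6 CPM in control mice. The lowest and the highest value both belonged to miR-132 mice, so the treatments overlapped. Neuroblast-like cells had 103.4 CPM and oligodendrocyte-like cells 72.8 CPM, and the endothelial-like level was higher than the neuroblast-like one in 7 of 7 mice (adjusted p = 0.0942 between the 2 classes). All 3 classes were called higher than the mean of the rest (adjusted p = 1.7e-09 in endothelial-like, 0.00013 in neuroblast-like and 6.8e-07 in oligodendrocyte-like cells). Its plexin, Plxnc1, passed 50 CPM in fibroblast-like cells alone, at 112.7 CPM with counts in 4 of 16 cells.

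Nrp1 was read mainly in vessel and neuronal cells, less in astrocyte-like cells and hardly in the oligodendrocyte lineage, a divide that Nrp2 did not show. Nrp1, which also binds vascular endothelial growth factor, averaged 439.7 CPM in endothelial-like cells, 264.2 CPM in neuroblast-like, 206.8 CPM in smooth muscle-like and 97.6 CPM in pericyte-like cells. Astrocyte-like cells averaged 51.02 CPM with counts in 16 of 96 cells. They passed as higher by edgeR (adjusted p = 0.0057) but not by limma (adjusted p = 0.712). Fibroblast-like cells had 0 CPM in 16 cells. Oligodendrocyte-like cells had 0.009 CPM with counts in 2 cells (0.671%), and precursor-like cells had none in 18 cells, which allows a share of up to 16.7%. By mouse endothelial-like Nrp1 was at 964.1, 494.3, 388.99 and 406.9 CPM in miR-132 mice and at 235.5, 249.96, 286.8 and 484.6 CPM in control mice. The treatments overlapped and miR-132 mouse 2, with 8 endothelial-like cells, was the highest. Nrp1 was called higher in endothelial-like (adjusted p = 1.5e-08) and neuroblast-like cells (adjusted p = 1.4e-05), which did not differ from each other beyond their spread (adjusted p = 0.673, endothelial-like higher in 4 of 7 mice). Nrp2, the neuropilin preferred by Sema3f, averaged 161.1 CPM in fibroblast-like cells, but only 4 of 16 cells had counts and 2 of 4 mice had none. Its level was 15.9 CPM in oligodendrocyte-like, 18.5 CPM in precursor-like, 15.7 CPM in endothelial-like, 40.04 CPM in neuroblast-like and 1.43 CPM in pericyte-like cells. Smooth muscle-like cells averaged 58.9 CPM of Nrp2, from 1 of 13 cells, and astrocyte-like cells 28.9 CPM.

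A-type plexins, the signalling partners of neuropilins, were most abundant in neuroblast-like cells. Plxna2 averaged 387 CPM there with counts in 29 of 39 cells (74.4%). Its level was 184.7, 151.4, 1459.1 and 160.98 CPM in miR-132 mice and 342.7, 378.9 and 470.8 CPM in the 3 control mice with at least 3 such cells. A single mouse, miR-132 mouse 6 with 3 cells, stood far above the rest. Endothelial-like cells had Plxna2 at 165.1 CPM and were called higher too (adjusted p = 3.4e-05, against 1.4e-06 in neuroblast-like cells), with neuroblast-like cells above them in 6 of 7 mice (adjusted p = 0.57 between the 2 classes).

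Plxna4 was nearly restricted to neuroblast-like cells, at 216.1 CPM against 5.05 CPM in endothelial-like cells, the next class. It had counts in 21 of 39 neuroblast-like cells and was higher there than in endothelial-like cells in 7 of 7 mice (adjusted p = 0.0094 between the 2 classes and 7.3e-07 against all other classes). By mouse it was at 112.04, 2.03, 319.2 and 71.7 CPM in miR-132 mice and at 87.3, 313.6 and 400.1 CPM in control mice, groups that overlapped. Plxna3 averaged 53.2 CPM in neuroblast-like cells (adjusted p = 0.00023), and its 67.3 CPM in fibroblast-like cells came from 1 of 16 cells. Plxna1 averaged 73.7 CPM in smooth muscle-like cells with counts in 5 of 13, and was not called in any class by both tests.

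B-type plexins were divided by class. Plxnb3, a B-type plexin known in oligodendrocytes, had counts in 97.99% of oligodendrocyte-like cells at a mean of 594 CPM. Its level was 501.4, 573, 669.8 and 581.9 CPM in miR-132 mice and 663.4, 589.7, 556.3 and 633.2 CPM in control mice. No mouse stood apart and the treatments overlapped. Precursor-like cells averaged 681 CPM, with counts in 15 of 18 cells, but ranged between 56.7 and 1233 CPM by mouse and exceeded oligodendrocyte-like cells in 1 of 4 mice (adjusted p = 0.213 between the 2 classes). Both were called higher (adjusted p = 1.3e-12 in oligodendrocyte-like and 2.2e-07 in precursor-like cells), and every other class lay at or below 12.5 CPM.

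Plxnb1, the receptor of Sema4d, led in astrocyte-like cells at 360.2 CPM with counts in 73 of 96 cells (76.04%; adjusted p = 0.00013). Its level was 306.6, 328.9, 323.5 and 314.7 CPM in miR-132 mice and 627.6, 279.9, 550.7 and 402.02 CPM in control mice. The miR-132 values lie inside the range of the control values. Plxnb1 was also read in smooth muscle-like (151.6 CPM), pericyte-like (135.03 CPM), precursor-like (121.5 CPM) and oligodendrocyte-like cells (72.1 CPM).

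Plxnb2, a receptor of class 4 semaphorins and of angiogenin, was the most abundant plexin of neuroblast-like cells (533 CPM, counts in 30 of 39 cells) and passed 50 CPM in 6 of 8 classes. Smooth muscle-like (494 CPM), pericyte-like (479 CPM) and fibroblast-like cells (369.03 CPM) followed. It was called higher in neuroblast-like (adjusted p = 0.012) and pericyte-like cells (adjusted p = 0.0067). The oligodendrocyte-like level was 10.03 CPM and the endothelial-like level 0.077 CPM, and both classes were called lower (adjusted p = 0.0336 in oligodendrocyte-like and 3.7e-06 in endothelial-like cells). The oligodendrocyte-like call stood in only 2 of the 8 fits without 1 mouse, those without mouse 4 or 5. Its adjusted p was between 0.0650 and 0.122 in 5 of the other 6, and the fit without mouse 7 gave no usable error. Plxnb2 and Nrp1 were thus opposite in endothelial-like cells. Plxnd1, the vascular plexin, was at 193.9, 148.7, 42.04 and 107.5 CPM in endothelial-like cells of miR-132 mice and at 347.8, 142.5, 62.7 and 190.4 CPM in those of control mice, which overlapped. It averaged 124.8 CPM there with counts in 36 cells (33.6%; adjusted p = 7.8e-09), and the next class, smooth muscle-like, had 35.5 CPM.

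Oligodendrocyte-like cells formed 4 clusters, made without the members. Plxnb3 was at 706, 567, 556 and 579 CPM in clusters 1, 4, 5 and 11, and Sema4d at 428.9, 540.5, 433.3 and 519.4 CPM. Sema6a was at 266.7, 338.7, 340.8 and 269.9 CPM and Sema6d at 398.1, 324.1, 327.8 and 352.9 CPM in the same order. Each of the 4 genes was thus read in every cluster. No test was made between clusters.

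Counts of a ligand and of its receptor met in the same cell in a few classes. Over 15 pairs known to bind and 8 classes, 78 of 120 values were 0 and 8 reached 20% of the cells. Among endothelial-like cells, 41 (38.3%) had counts of both Sema3c and Nrp1, and 26 (24.3%) of both Sema3c and Plxnd1. In neuroblast-like cells 8 of 39 (20.5%) had both Sema3c and Nrp1. Sema4d with Plxnb1 stood in 89 oligodendrocyte-like cells (29.9%), Sema4a with Plxnb1 in 27 of 96 astrocyte-like cells (28.1%) and Sema5a with Plxnb3 in 12 of 18 precursor-like cells (66.7%). Sema6a with Plxna2 in endothelial-like cells (25.2%) and Sema6d with Plxna1 in smooth muscle-like cells (30.8%) were the other values of at least 20%. Sema3e and Plxnd1 met in no cell of any class, and Sema7a and Plxnc1 in 2.80% of endothelial-like cells. The product of the 2 single shares is close to the share with both, at 41.03% for Sema3c and Nrp1 in endothelial-like and 28.9% for Sema4d and Plxnb1 in oligodendrocyte-like cells, so these pairs met about as often as their single shares give. Shares with a count depend on depth, and were recomputed after thinning each well to 50000 counts. Of 23 members described by class, 21 kept their share in the leading class within its interval, while Sema4b moved to 32.3% and Sema6a to 78.9%.

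Sema3g cells were compared with the other endothelial-like cells for 7 genes of arterial endothelium. In the 3 mice with at least 2 cells of each kind (mice 5, 6 and 8), the mean of log2(CPM + 1) over the 7 genes was 1.63 ± 1.30 (SD, n = 3) higher in the cells with Sema3g. All 3 mice showed this direction, by 1.90 log2 units in mouse 5, 0.21 in mouse 6 and 2.78 in mouse 8. An exact two-sided permutation test gave p = 0.25, the smallest that 3 mice allow. Over all mice, the gap junction gene Gja4 had counts in 6 of 15 cells with Sema3g and 0 of 92 without, and the growth factor gene Vegfc in 6 of 15 and 2 of 92. Bmx, a kinase of arterial endothelium, had counts in 8 of 15 and 9 of 92, and the Notch target Hey1 in 8 of 15 and 13 of 92. The ephrin gene Efnb2 had counts in 7 of 15 and 6 of 92, the Notch ligand gene Jag1 in 6 of 15 and 18 of 92, and the gap junction gene Gja5 in 1 of 15 and 1 of 92. These counts pool cells of all mice and were not tested. Median counts per well were 531013 in cells with Sema3g and 582044 in those without.

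For the treatment, counts were summed per mouse and tested with edgeR's quasi-likelihood test, with sort date as covariate. Standard errors (SE) of its folds were derived as the size of the log2 fold divided by the square root of the test's F statistic. Over all kept wells 8823 genes were tested and 0 passed the threshold (0%), with 395 (4.48%) at unadjusted p under 0.05. The same held in oligodendrocyte-like (0 of 7433 genes, 0%, with 2.97% at unadjusted p under 0.05), astrocyte-like (0 of 7429, 0%, with 1.47%), endothelial-like (0 of 5799, 0%, with 1.97%) and pericyte-like cells (0 of 5105, 0%, with 0.627%). DESeq2 called 15, 3, 18, 33 and 14 genes in these 5 sets. None of the 31 members was called by either tool in any set. With at most 4 mice per treatment, the p-values set the treatment difference, adjusted for sort date, against the spread between these animals. In sums over all wells, fewer cells of a type and less RNA per cell cannot be told apart.

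Of the 31 members, 12 passed the filter over all wells, with 5 higher and 7 lower in miR-132 mice and a median log2 fold of -0.04, against 0.00 for all genes tested. In oligodendrocyte-like cells 3 were higher and 3 lower, and in astrocyte-like cells 6 were higher and 4 lower (median 0.39, against 0.17 for all genes). In endothelial-like cells, with 4 miR-132 and 3 control mice since control mouse 1 had fewer than 5 such cells, 7 were higher and 2 lower (median 0.44, against 0.30). In pericyte-like cells 2 were higher and 4 lower (median -0.44, against -0.03). None of these counts was tested against the background.

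**Figure D3:**
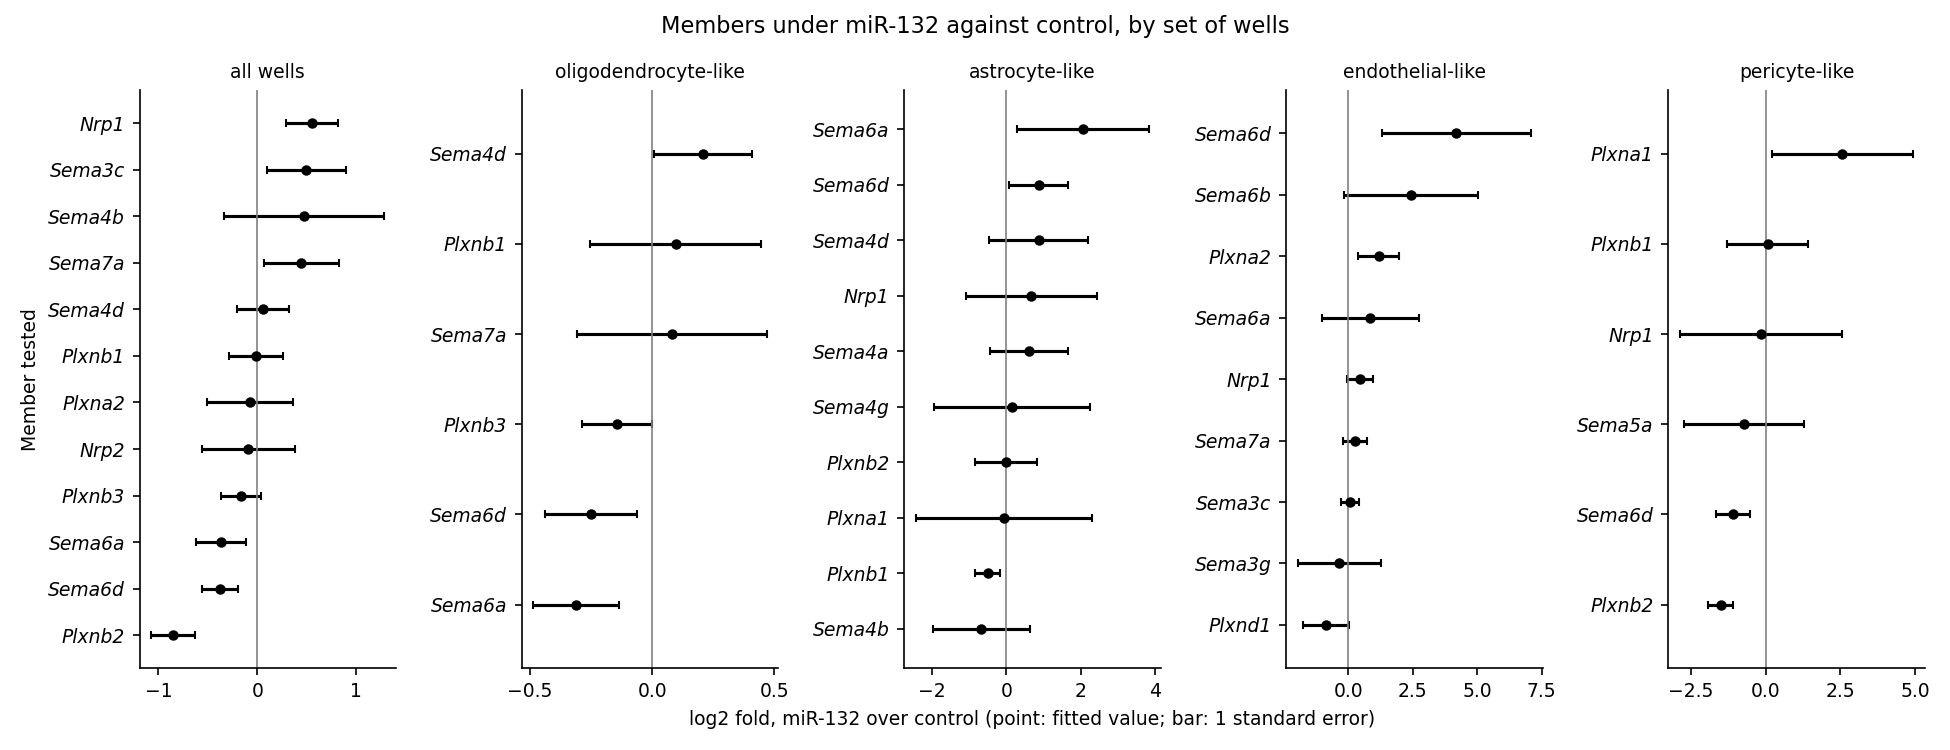
Log2 fold (miR-132 over control, edgeR) with a standard error derived from the F statistic, for the members tested over all wells and in 4 classes. No member passed at adjusted p under 0.05, and Plxnb2 over all wells (-0.85) and in pericyte-like cells (-1.51) lay farthest from 0 relative to its error.

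Plxnb2 had the smallest p of the members. Over all wells it averaged 146.02, 98.8, 78.8 and 109.2 CPM in miR-132 mice and 220.8, 198.7, 128.7 and 165.5 CPM in control mice. The ranges overlapped, since miR-132 mouse 2 lay above control mouse 5, but within each sort date both miR-132 mice were below both control mice. The means were 108.2 ± 28.2 CPM and 178.4 ± 40.2 CPM (SD, n = 4 each). On 17 April they were 122.4 CPM in miR-132 mice and 209.7 CPM in control mice, and on 19 April 94.01 and 147.1 CPM. The log2 fold was -0.85 ± 0.22 (SE), at an unadjusted p of 0.0026 that ranked 27 among all genes and an adjusted p of 0.835 by edgeR's quasi-likelihood test (0.106 by DESeq2).

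Pericyte-like cells showed the same order more widely. Plxnb2 was at 223.05, 461.1, 260.4 and 285.003 CPM in miR-132 mice and at 837.7, 479.3, 927.5 and 486.1 CPM in control mice. Every miR-132 mouse lay below every control mouse. The means were 307.4 ± 105.6 CPM and 682.7 ± 233.8 CPM (SD, n = 4 each), with 342.05 and 658.5 CPM on 17 April and 272.7 and 706.8 CPM on 19 April. The log2 fold was -1.51 ± 0.43 (SE, unadjusted p = 0.0057, rank 7 among 5105 genes), and the adjusted p was 0.99995 by edgeR's quasi-likelihood test and 0.0734 by DESeq2. The fits without each mouse in turn gave log2 folds between -1.68 and -1.35.

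In neuroblast-like and astrocyte-like cells this order held on 17 April but not over both dates. Neuroblast-like cells had 570.6, 505.2, 497.2 and 298.9 CPM in miR-132 mice and 611.9, 722.9 and 381.6 CPM in control mice 1, 3 and 5, which overlapped. Astrocyte-like cells had 247.9, 119.9, 118.7 and 271.7 CPM in miR-132 mice and 412.8, 455.6, 28.5 and 130.3 CPM in control mice, which overlapped widely. In fibroblast-like cells, Plxnb2 was at 1063.4 and 234.99 CPM in miR-132 mice 2 and 8 and at 378.8 and 0 CPM in control mice 5 and 7, which overlapped too. In smooth muscle-like cells it was at 468.5 CPM in miR-132 mouse 4 and at 514.4 and 774.8 CPM in control mice 1 and 7, and no other mouse had at least 3 cells. Whether the difference in pericyte-like cells exceeds that in other classes was not tested. The number of cells of the classes moved too, with 5, 4, 3 and 3 neuroblast-like cells in miR-132 mice and 9, 9, 4 and 2 in control mice, and 6, 5, 10 and 12 pericyte-like cells in miR-132 mice and 8, 5, 7 and 18 in control mice. Their part in the value over all wells was not tested. In a second reading of the labels, a well belongs to the sample titled with its name. It gave log2 folds of 0.19 over all wells and 0.58 in pericyte-like cells, so the direction depends on which reading is right. Each mouse has 96 wells, beside 94 cells stated as sorted. The 16 wells of over 6000 genes numbered 2 in every mouse under the main reading. Under the second reading they numbered 0 to 8 a mouse. Which reading is right was not tested.

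**Figure D4:**
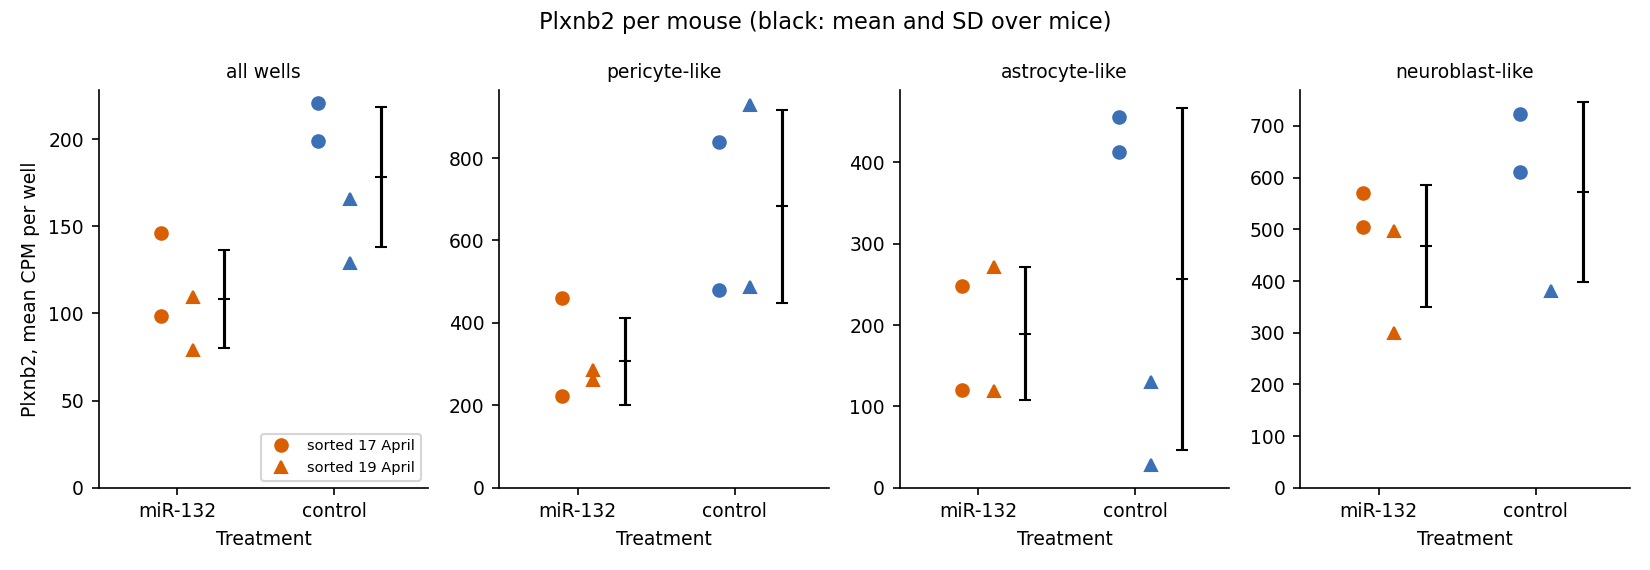
Mean Plxnb2 level in CPM by mouse, over all wells and by class, miR-132 mice left of control mice and sort dates marked apart. In pericyte-like cells the miR-132 mice lie between 223.05 and 461.1 CPM and the control mice between 479.3 and 927.5 CPM.

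The members with the next smallest p over all wells were Nrp1, Sema6d and Sema6a. Nrp1 was at 125.2, 108.7, 138.9 and 144.1 CPM in miR-132 mice and at 69.5, 53.98, 66.9 and 146.9 CPM in control mice. Control mouse 7 lay above all miR-132 mice and the other 3 below them. The log2 fold was 0.55 ± 0.26 (SE, unadjusted p = 0.060 by edgeR) and 0.82 without mouse 7. Endothelial-like cells, which hold most Nrp1, numbered 8, 13, 23 and 23 in miR-132 mice and 4, 6, 12 and 18 in control mice, and the part of this in the value was not tested.

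Sema6d was at 288.8, 234.97, 223.2 and 305.1 CPM in miR-132 mice and at 319.03, 353.4 and 314.3 CPM in control mice 1, 3 and 7, with control mouse 5 between mice 7 and 1. The groups did not overlap. The log2 fold was -0.37 ± 0.18 (SE, unadjusted p = 0.064 by edgeR). In pericyte-like cells, its leading class, the miR-132 mice had 316.1, 159.4, 515.7 and 984.4 CPM and the control mice 644.4, 1309.9, 869.9 and 682.8 CPM, with a log2 fold of -1.09 ± 0.56 (SE, unadjusted p = 0.078 by edgeR). These groups overlapped through miR-132 mouse 8. In astrocyte-like cells Sema6d lay the other way, with means of 311.1 ± 66.001 CPM in miR-132 mice and 177.1 ± 154.98 CPM in control mice (SD, n = 4 each). Under the second reading of the labels the folds over all wells were -0.46 for Nrp1 and 0.06 for Sema6d, both of the opposite sign. Sema6a had a log2 fold of -0.37 ± 0.25 (SE, unadjusted p = 0.177 by edgeR) over all wells, and -0.07 without mouse 5.

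The genes with miR-132 seed matches showed no common direction. Among 4 of them, mean levels over all wells were 147.7 ± 57.2 CPM in miR-132 mice and 99.6 ± 46.2 CPM in control mice for Sema3c, 21.6 ± 5.91 and 21.4 ± 17.99 CPM for Plxnd1, 18.4 ± 7.76 and 33.9 ± 25.9 CPM for Sema5a, and 10.9 ± 1.68 and 12.5 ± 6.01 CPM for Sema5b (SD, n = 4 each). Sema4g was at 7.33 ± 4.10 CPM in miR-132 mice and 3.48 ± 2.27 CPM in control mice (SD, n = 4 each). In each of these 5 genes the groups overlapped.

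Of 34 partners and transducers of semaphorin signals outside the family, 32 were tested between classes. The edgeR test called 8 higher (25%, against 13% of all genes) in endothelial-like, 8 (25%, against 30.5%) in oligodendrocyte-like and 8 (25%, against 20%) in astrocyte-like cells. It called 7 higher (21.9%, against 11.4%) in neuroblast-like, 6 (18.8%, against 6.02%) in precursor-like and 5 (15.6%, against 6.81%) in pericyte-like cells. Lower calls numbered 0, 1, 1, 2, 0 and 0 in the same order. Both tests called 8, 3, 5, 6, 5 and 3 higher and 0, 1, 1, 2, 0 and 0 lower, and the partners called below passed both unless stated. The share of all genes called by both tests was not computed, so these joint counts are not set against a background. Collapsin response mediators carry class 3 semaphorin signals to microtubules. Of these, neuroblast-like cells led in Dpysl3 at 1208 CPM (adjusted p = 7.5e-08 by edgeR), Crmp1 at 1054 CPM (adjusted p = 1.9e-08) and Dpysl5 at 655 CPM (adjusted p = 7.5e-08). The adhesion molecules L1cam (191.5 CPM) and Chl1 (305.7 CPM), which join neuropilin complexes, were called higher there too. The mediators Dpysl2 (302.7 CPM) and Dpysl4 (21.2 CPM) were not highest in neuroblast-like cells. Dpysl4 was highest in precursor-like cells, at 32.5 CPM, and Dpysl2 in oligodendrocyte-like cells. Oligodendrocyte-like cells had Dpysl2 at 613 CPM (adjusted p = 1.2e-06), and precursor-like cells the kinase gene Fyn at 1187 CPM, which passed by edgeR (adjusted p = 0.017) but not by limma (adjusted p = 0.0623). Mical2, an actin-oxidising enzyme gene, was at 300.8 CPM and Farp1 at 228.9 CPM in astrocyte-like cells (adjusted p = 5.6e-10 for Mical2 and 0.0015 for Farp1). The plexin-linked kinase gene Fes was at 123.3 CPM in endothelial-like cells (adjusted p = 2.4e-06), and Itga1, a partner chain of the integrin that binds Sema7a, at 789 CPM in pericyte-like cells (adjusted p = 5.0e-09). Between treatments 0 of 23 list genes tested over all wells were called, and 0 of 14, 22, 17 and 16 in oligodendrocyte-like, astrocyte-like, endothelial-like and pericyte-like cells.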

How the data were processed

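The authors deposited raw read counts for 32679 genes in 768 wells. The submitters' processing notes name mm10, STAR, featureCounts 1.5.1 (Subread), FastQC and Seurat 2.3.1, with settings not given in the sources used here. Neither strand nor molecules are marked by Smart-seq2, so antisense partners cannot be told apart and reads are not independent molecules. The labels give 2 maps of wells to mice. Descriptions of samples were used as the main one and titles as the alternative. They agree on the mouse of 96 wells and the treatment of 384. Per mouse there are 96 wells, beside 94 cells stated as sorted. No column went unused (0).

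Wells with at least 50000 counts and 1000 genes were kept. Leiden clustering (scanpy 1.11.5, igraph 0.11.9, 2000 variable genes, 20 components, 15 neighbours, resolution 1, members left out) gave clusters named from marker lists. No doublet caller was run, 1 well with microglia markers was set aside after it was seen, and wells over 6000 genes stayed unnamed (this limit, too, followed a look at the data). Levels by mouse use mice with at least 3 cells of a class. Counts were summed per mouse, or per mouse and class, and tested with edgeR 4.0.16 (TMM, filterByExpr, R 4.3.3), limma 3.58.1 and DESeq2 1.42.0, with Benjamini-Hochberg adjustment, all two-sided. Treatment sums needed 5 cells a mouse and a count in at least 10% of wells. A zero share's upper limit is 3 cells of the total and covers counting error only. The members, gene lists and tests were chosen with earlier results of these data known. Members at 50 CPM or more in a class of 10 or more cells were described, and in the treatment the 4 with the smallest p over all wells and any with unadjusted p under 0.05 in a class. Alternatives were DESeq2, limma, no filter, the title map, no sort date, marker-set classes, at least 5 cells a sum, thinned wells and leaving out each mouse. Scripts were tested on simulated counts.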

Additional observations from a re-analysis of the deposited data

Results flagged for a closer look

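Of 31 groups of 4 to 8 mice, 7 held a mouse set off from its nearest neighbour by a large part of the range. The limits used give about 1 in 20 only for normally distributed values. Means over few cells, many of them in a class picked for its highest mean, need not be so. The number flagged is therefore not set against chance. Over all wells these were Nrp1 in control mouse 7 (146.9 CPM, next 69.5 CPM) and Sema6d in control mouse 3 (353.4 CPM, next 319.03 CPM). By class they were Nrp1 in endothelial-like cells of miR-132 mouse 2 (964.1 CPM, next 494.3 CPM), Plxna2 in neuroblast-like cells of miR-132 mouse 6 (1459.1 CPM, next 470.8 CPM) and Plxna3 in fibroblast-like cells of miR-132 mouse 2 (358.9 CPM, next 0). Sema3g in endothelial-like cells of control mouse 5 (421.4 CPM, next 79.4 CPM) and Sema4b in astrocyte-like cells of control mouse 1 (530.97 CPM, next 235.1 CPM) were the others. Several rest on few cells, with 3 neuroblast-like cells in mouse 6 and 7 astrocyte-like cells in mouse 1.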

How the results depend on the processing

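Genes called between treatments over all wells and in oligodendrocyte-like, astrocyte-like, endothelial-like and pericyte-like cells numbered 15, 3, 18, 33 and 14 with DESeq2 and 84, 18, 2, 8 and 1 with no filter on low counts, and 0 under the other alternatives run and without each mouse. No member was among those called. The title map reversed 4 folds of miR-132 over control, Plxnb2 (0.19 over all wells, 0.58 in pericyte-like cells), Nrp1 (-0.46) and Sema6d (0.061). Members called by class moved with DESeq2 to 20 in astrocyte-like, 21 in endothelial-like, 21 in pericyte-like and 16 in precursor-like cells. Over all genes DESeq2 called 6673, 5824, 5444 and 4943 of 15310 in the same order. With limma 11 members were called in pericyte-like cells, beside 2175 of 15310 genes. Sums of at least 5 cells gave 6 members in neuroblast-like cells, beside 771 of 14973 genes. Leaving out each mouse gave 3 to 6 members in precursor-like cells. The fit with 3, without mouse 4, called 741 of 14937 genes. Over these fits the genes called ranged between 567 of 15091 (without mouse 1, 4 members) and 1027 of 14950 (without mouse 2, 6 members). The 18 named members were followed in their leading class. That class was picked for its highest mean in these same counts, so a higher call there was partly fixed by the choice. Their folds kept direction and call in 100 of 100 alternatives. They also did so in all fits without a mouse but 2, for Sema5a in precursor-like cells and Sema6d in pericyte-like cells. Of the calls named in other classes, 5 were lost in at least 1 such fit: Sema6d in oligodendrocyte-like and endothelial-like, Sema5a in endothelial-like, Plxnb2 in oligodendrocyte-like and Sema6c in neuroblast-like cells. The arterial difference stayed between 0.95 and 2.34. Precursor-like cells gave no value under marker-set classes or sums of 5 cells. The causes were not tested. No paired analysis was possible because the treatments share no mouse number. Few cells per mouse limit the smaller classes.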
